A study of Mus musculus with 8 samples.

Results

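Promoters that carried H3K4me3 in wild-type (wt) mouse embryonic stem cells (mESCs) but little of it in wt pancreatic islet-like endocrine cells (PILECs) were selected. They were taken from the 5' ends of 21418 protein-coding genes on the 19 autosomes. A promoter was the 1 kb either side of the 5' end of the gene, and its level was the number of ChIP-Seq tags in that window per 1000000 tags sequenced from that library (RPM). Promoters with at least 8 RPM in wt mESCs and at most 2 RPM in wt PILECs were kept, which left 291 promoters, or 1.36% of all of them and 2.53% of the 11487 that held 8 RPM or more in wt mESCs. These 291 ESC-only promoters were chosen by their values in the wt mESC and wt PILEC libraries, so those values are given as a description. The 2 menin-null H3K4me3 libraries took no part in the choice.

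The wt mESCs were the line TC-1 and the Men1-KO (menin-null) mESCs the line 3.2N, both of the genetic background 129S6/SvEvTac, and PILECs were differentiated in vitro from each line. Each genotype was a single line, so a difference between lines and an effect of menin loss cannot be told apart. The mESCs had been grown on irradiated feeder fibroblasts, which were removed by repeated short platings before the cells were moved to gelatin. There were 4 H3K4me3 libraries and 4 input libraries, 1 of each for every genotype and stage, and no group had a replicate. All intervals below are therefore 95% intervals of the tag counts (exact Poisson for a level, exact conditional binomial for a ratio), cover counting error only, and compare libraries rather than conditions. The mESC libraries were much shallower than the PILEC libraries, with 2432377 and 3517028 H3K4me3 tags against 18773635 and 17682677, so that 8 RPM was 20 tags in wt mESCs and 2 RPM was 37 tags in wt PILECs. Over exons 3 to 8 of Men1, the targeted gene, both menin-null inputs had 0 tags, where a count of 0 allows up to 3 (a one-sided bound), and the wt inputs had 17 (mESCs) and 22 (PILECs).

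H3K4me3 is the trimethylated form of lysine 4 of histone H3, and it lies around the start of genes that are transcribed or ready to be transcribed. MLL-type methyltransferases deposit it, and menin is a subunit of the complexes that contain MLL1 or MLL2. Unmethylated CpG-rich promoters usually carry the mark in many cell types, whereas promoters with fewer CpG dinucleotides carry it mainly where the gene is active. mESCs keep a network of pluripotency factors and Nodal signalling active, and they transcribe some germline genes that are silenced in most somatic cells by DNA methylation.

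Promoter sequences are shown for the ESC-only promoters with the highest wt mESC level in the pluripotency and Nodal lists and in the germline list, since these lists hold the best known genes of the set. Each line gives the 250 bases before the start on the strand of the gene, 5' to 3', from NCBIM37 (mm9), with CpG dinucleotides in capitals.
Tdgf1, chr9:110848663-110848912, minus strand: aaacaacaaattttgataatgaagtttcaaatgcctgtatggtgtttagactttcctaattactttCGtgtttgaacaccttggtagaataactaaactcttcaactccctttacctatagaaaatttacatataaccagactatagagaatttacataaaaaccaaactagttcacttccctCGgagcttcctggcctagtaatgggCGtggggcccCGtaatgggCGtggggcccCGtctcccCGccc
Foxh1, chr15:76500379-76500628, minus strand: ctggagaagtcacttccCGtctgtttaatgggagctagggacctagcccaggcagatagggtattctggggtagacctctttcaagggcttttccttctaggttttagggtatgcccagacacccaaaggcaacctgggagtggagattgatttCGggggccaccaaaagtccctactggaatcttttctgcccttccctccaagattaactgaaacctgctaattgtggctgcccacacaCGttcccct
Gdf3, chr6:122560106-122560355, minus strand: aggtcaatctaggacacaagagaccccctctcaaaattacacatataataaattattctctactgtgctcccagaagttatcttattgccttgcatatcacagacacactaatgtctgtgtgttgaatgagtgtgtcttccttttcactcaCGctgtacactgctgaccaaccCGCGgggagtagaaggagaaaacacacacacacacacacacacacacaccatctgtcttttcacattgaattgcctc
Tdgf1 encodes the Nodal co-receptor Cripto, Foxh1 the DNA-binding partner of SMAD2 and SMAD3, and Gdf3 a TGF-beta family ligand. The stretch before Tdgf1 held 7 CpG dinucleotides, and those before Foxh1 and Gdf3 held 3 each.
Hsf2bp, chr17:32171454-32171703, minus strand: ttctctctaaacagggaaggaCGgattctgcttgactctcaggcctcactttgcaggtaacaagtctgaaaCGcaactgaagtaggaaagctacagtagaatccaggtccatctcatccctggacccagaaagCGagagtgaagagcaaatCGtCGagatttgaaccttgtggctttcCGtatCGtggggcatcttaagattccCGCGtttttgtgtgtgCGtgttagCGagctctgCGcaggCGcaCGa
Dmc1, chr15:79435530-79435779, minus strand: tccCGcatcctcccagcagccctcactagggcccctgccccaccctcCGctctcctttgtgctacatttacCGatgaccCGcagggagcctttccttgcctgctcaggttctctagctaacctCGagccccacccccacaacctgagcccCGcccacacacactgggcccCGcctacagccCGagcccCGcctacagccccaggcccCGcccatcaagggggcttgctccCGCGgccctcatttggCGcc
Tdrd12, chr7:36322765-36323014, minus strand: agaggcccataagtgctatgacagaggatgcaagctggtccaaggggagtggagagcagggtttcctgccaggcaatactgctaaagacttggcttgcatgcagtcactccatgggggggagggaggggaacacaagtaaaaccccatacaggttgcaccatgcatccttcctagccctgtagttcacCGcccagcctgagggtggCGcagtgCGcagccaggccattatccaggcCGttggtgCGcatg
Hsf2bp encodes a meiotic recombination factor, Dmc1 the recombinase of meiosis, and Tdrd12 a tudor protein of the piRNA pathway. There were 14 CpG dinucleotides before Hsf2bp, 13 before Dmc1 and 5 before Tdrd12.

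Over the whole 1-kb window on either side of the start, the ESC-only promoters were intermediate in CpG content. The CpG count over that expected from base composition had a median of 0.43 in them, against 0.66 in the 10529 promoters with 8 RPM or more in both wt libraries and 0.20 in the 9931 promoters under 8 RPM in wt mESCs. Those marked at both stages held more H3K4me3 in wt mESCs (median 34.1 against 11.1 RPM). At like wt mESC levels the median ratio was 0.416 in ESC-only promoters and 0.504 in the other marked promoters from 8 to 12 RPM, 0.468 and 0.553 from 12 to 20 RPM, and 0.39 and 0.639 from 20 to 44 RPM. Of the 291 promoters, 260 (89.3%) were under 0.6, against 37.5% of those marked in wt mESCs and 65.5% of all promoters. The ratio ran from 0.115 to 1.08, and the highest was that of Rbmxl2, which was also the ESC-only promoter with the most H3K4me3. G and C made up a median of 53.6% of the bases in the ESC-only promoters, 55.1% in those marked at both stages and 45.8% in those under 8 RPM. The rule did not use base composition, but it used the wt H3K4me3 levels, so these values are a description.

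**Figure D1:**
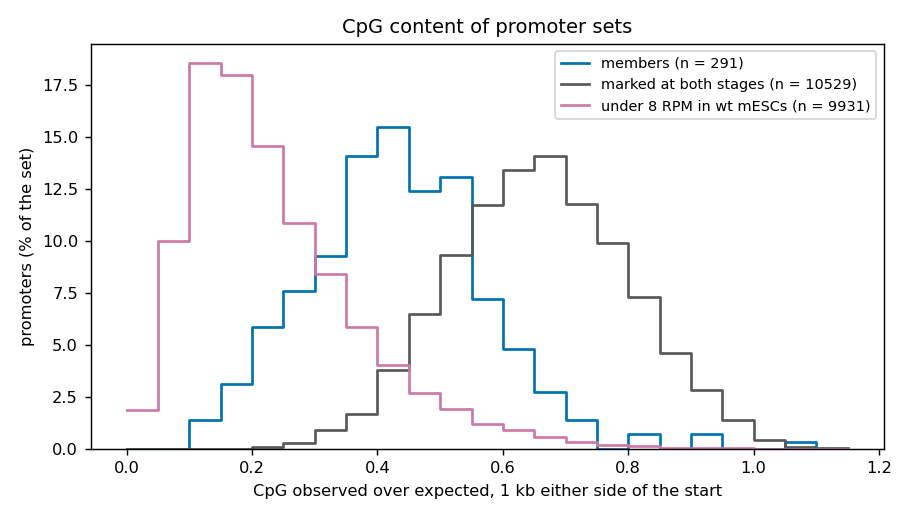
CpG observed over expected in the 1 kb either side of the start (horizontal axis, no unit), as the percent of each set of promoters in steps of that ratio (vertical axis). The ESC-only promoters (blue, median 0.43) lie between promoters under 8 RPM in wt mESCs (pink, median 0.20) and promoters marked at both stages (grey, median 0.66).

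Exact matches to 3 motifs were searched on both strands of 300 bases, 250 before the start and 50 from it, and none of these motifs contains another. ATGCAAAT, the octamer that OCT factors bind, was found in 7 of the 291 promoters (2.41%) and in 1.73% of all promoters and 1.21% of those marked at both stages. The ESC-only promoters with the octamer were those of Zfp42, Gm10451, Rab26, Cdx2, Gm12588, Gm14124 and Gm14139. CACGTG, an E-box, was found in 24 (8.25%), against 7.78% of all promoters and 10.6% of those marked at both stages. GGCGGGAA, an E2F site, was found in 15 (5.15%), against 2.81% of all promoters and 4.62% of those marked at both stages. None of the 6 promoters printed above held any of the 3 motifs in its 300 bases.

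In the wt libraries the ESC-only promoters held a median of 11.1 RPM in mESCs, from 8.22 to 43.6, and a median of 1.17 RPM in PILECs, from 0.213 to 1.97. Most were modest for a marked promoter: promoters marked at both stages had a median of 34.1 RPM in wt mESCs. At the lower edge, 21 members held exactly 20 tags in wt mESCs (8.22 RPM), among them 1700067K01Rik, 2410137M14Rik and Acot4, and 23 promoters with low PILEC levels held 19 tags (7.81 RPM) and fell outside, among them 1700106J16Rik, Abcb1a and Accsl. At the PILEC edge, 10 members held 37 tags (1.97 RPM), among them 5330438I03Rik, Artn and Ccnb1ip1, and 6 promoters with 38 tags (2.02 RPM), among them Comp, Dkk3 and Echdc3, were left out. The menin-null values on both sides of an edge overlapped, for example 9.38 RPM in menin-null mESCs at Acot4 inside and 11.4 RPM at Accsl outside. The windows of 12 members overlapped that of another member and the 291 promoters formed 285 separate stretches, so members such as Prss32 and Prss41 share tags.

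The mark at these promoters stood in the place where promoter H3K4me3 usually stands. Averaged over the members, wt mESC H3K4me3 was highest from 100 to 199 bp inside the gene, at 1.49 RPM per 100 bp, which was 16.9 times the mean beyond 3 kb. Menin-null mESCs had the same highest bin, at 1.52 RPM per 100 bp and 15.1 times the distant mean. In wt PILECs the highest level, 0.0998 RPM per 100 bp, was reached from 0 to 99 bp and again from 4300 to 4399 bp. It was 1.66 times the distant mean. In menin-null PILECs the profile held 0.0976 RPM per 100 bp from 100 to 199 bp, and its highest bin, at 0.111, lay more than 4 kb from the start.

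**Figure D2:**
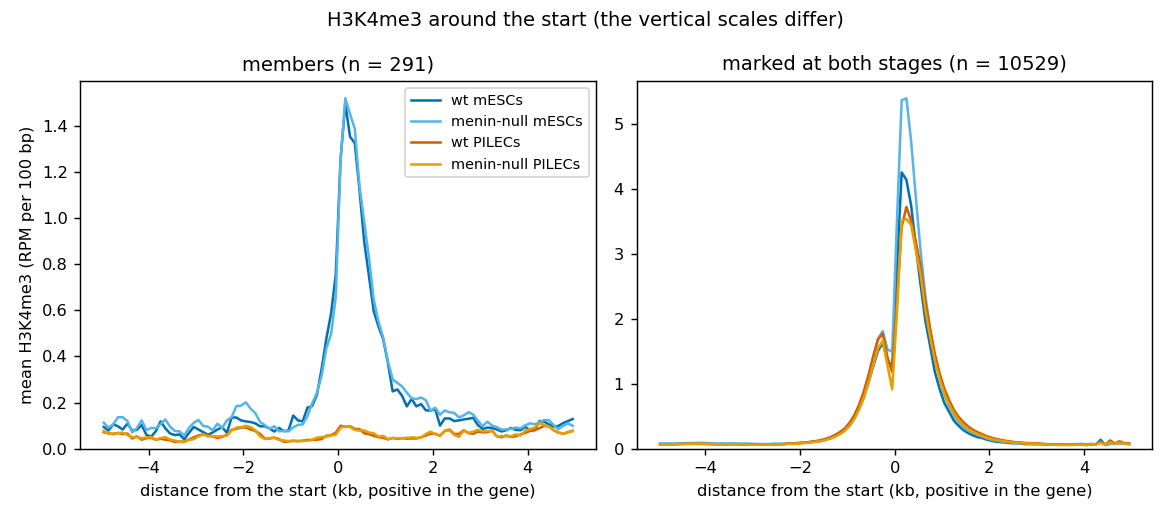
Mean H3K4me3 in RPM per 100 bp (vertical axis, a different scale in each panel) by distance from the start in kb (horizontal axis, positive inside the gene), for the 291 ESC-only promoters and for the 10529 promoters marked at both stages in wt cells. Lines are the 4 libraries. On the left the mESC lines peak at 1.49 and 1.52 while the PILEC lines stay at or under 0.111, and on the right all 4 lines peak.

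Input chromatin gave a second scale. With 1 tag added to each count, the ratio of H3K4me3 RPM to input RPM was taken at the ESC-only promoters. Its median was 4.80 in the wt and 4.79 in the menin-null mESCs, and 1.27 in the wt and 1.253 in the menin-null PILECs. It ran from 1.95 to 44.5 in wt mESCs and from 0.828 to 57.0 in menin-null mESCs. In wt mESCs 254 of the 291 reached 3 times input, and the rest stood closer to input. In wt PILECs it ran from 0.22 to 5.57, so the limit of 2 RPM did not hold every member at input level. In menin-null mESCs the interval of this ratio lay above input at 266 of the 291 promoters (91.4%), where 57.6% of all promoters did so. In menin-null PILECs it did at 46 (15.8%), where again 57.6% of all promoters did. The members were chosen by their wt levels, while all promoters include 9931 under 8 RPM in wt mESCs. These shares are therefore of unlike sets. The other promoters marked in wt mESCs had higher median ratios than the members, 12.4 in wt and 16.2 in menin-null mESCs. The mESC inputs were higher than the PILEC inputs at these promoters, with medians of 2.35 and 2.14 RPM against 0.947 and 0.883 RPM. Over all promoters the medians were 1.88 and 1.60 RPM against 0.947 and 0.993 RPM, so this was not particular to the set. The part of this difference in the result was not tested.

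The menin-null libraries asked whether the same promoters lost the mark between the stages without menin. They met the same rule, at least 8 RPM in mESCs and at most 2 RPM in PILECs, at 319 of the 21418 promoters (1.49%). Of these 319, 196 were ESC-only promoters of the wt libraries, which is 67.4% of the 291 and 61.4% of the 319. The other 95 members missed the rule in different ways, 67 only because menin-null mESCs held under 8 RPM, 21 only because menin-null PILECs held over 2 RPM and 7 for both reasons. Of the 291, 283 (97.3%) held 4 RPM or more in menin-null mESCs, against 99.8% of all promoters marked in wt mESCs. Conversely, the 123 promoters that met the rule in the menin-null libraries alone had a median of 7.81 RPM in wt mESCs and 2.13 RPM in wt PILECs, close to the thresholds.

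**Figure D3:**
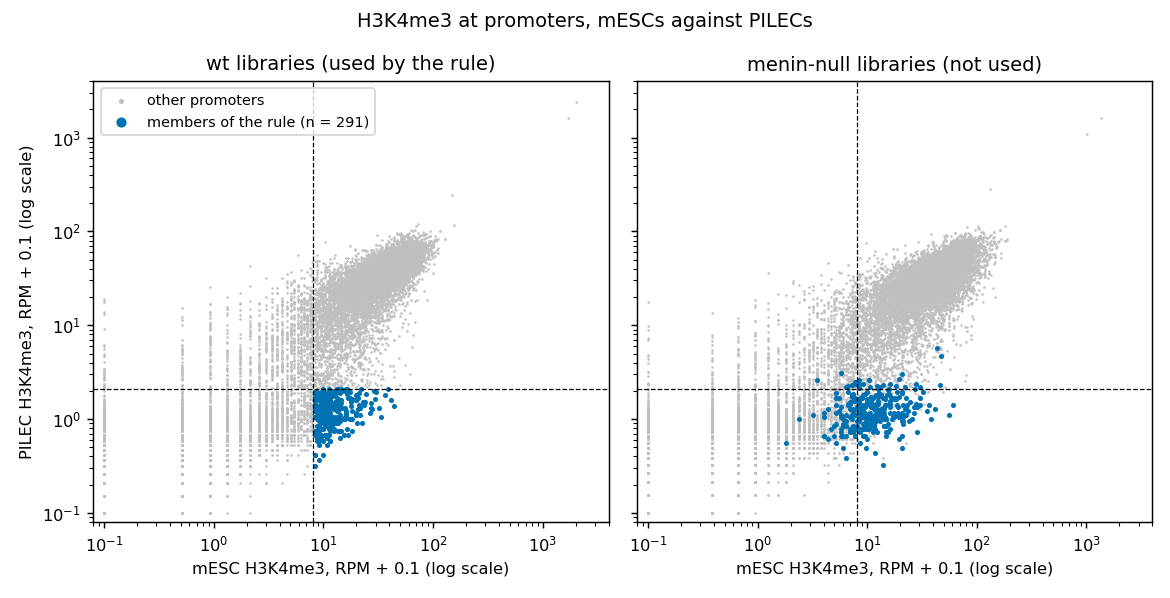
H3K4me3 in PILECs (vertical axis) against mESCs (horizontal axis), in RPM plus 0.1 on log scales, for all 21418 promoters, with the wt libraries on the left and the menin-null libraries on the right. Dashed lines mark 8 RPM and 2 RPM. The 291 ESC-only promoters (blue) fill the lower right corner on the left by choice, and 196 of them lie in the same corner on the right.

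The level fell between the stages in menin-null cells at nearly all of these promoters. With 1 tag added to each count, menin-null PILECs were 4-fold or more lower than menin-null mESCs at 272 of the 291 promoters (93.5%), against 9.55% of all promoters. The 9.55% includes promoters with few or no tags, where the added tag weighs less in the deeper PILEC library and by itself lowers the ratio. Among promoters under 8 RPM in wt mESCs the 10th percentile of the log2 ratio was -2.33. It is thus not a share of promoters that lost a mark. The median log2 ratio was -3.33 over the members and -0.35 over all promoters, and the interval lay below 0 at 289 of 291 members and at 33.3% of all promoters. Of the 19 members short of 4-fold, 17 held under 8 RPM in menin-null mESCs. These included Cldn6, a claudin of tight junctions in embryonic epithelium, with 5.69 RPM in menin-null mESCs and 2.997 RPM in menin-null PILECs.

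Genes of pluripotency and of Nodal signalling gave the best known members. The gene lists here and below were chosen with earlier results of these data known. Their counts of members beside the share of all marked promoters are therefore a description. Of 30 pluripotency genes, 29 were placed on autosomes, 20 had 8 RPM or more in wt mESCs, and 3 were members (Zfp42, Fbxo15 and Dppa4), while the other 17 held more than 2 RPM in wt PILECs. Of all promoters marked in wt mESCs, 2.53% were members. Zfp42, which encodes the zinc-finger protein REX1, held 23.4 RPM in wt and 27.9 in menin-null mESCs, with 1.33 in wt and 1.36 in menin-null PILECs. Both mESC libraries were far above both PILEC libraries. Fbxo15, a target of OCT4 and SOX2, held 21.4 and 21.9 RPM in wt and menin-null mESCs and 1.01 and 2.09 RPM in wt and menin-null PILECs. Dppa4, a chromatin protein of pluripotent cells, held 13.6 and 16.2 RPM in wt and menin-null mESCs and 0.905 and 0.679 RPM in the PILECs of the same genotypes. The core factors were outside the set because of their PILEC level. Pou5f1, which encodes OCT4, had 55.9 RPM in wt mESCs and 3.68 in wt PILECs, Nanog had 33.3 and 2.56, and Sox2, which neural cells use too, had 51.4 and 23.2.

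Among 16 genes of the Nodal pathway, 13 had 8 RPM or more in wt mESCs and 5 were members. Of all promoters marked in wt mESCs, 2.53% were members. All 5 met the rule in the menin-null libraries as well, where 67.4% of all members did. Their median wt mESC level, 27.1 RPM, lay further above 8 RPM than the 11.1 RPM of all members. These 5 were 3 ligands or inhibitors (Gdf3, Gdf1 and Lefty1), the co-receptor (Tdgf1) and the nuclear partner (Foxh1). Tdgf1 on chromosome 9 held 41.5 RPM in wt and 34.7 in menin-null mESCs, with 1.49 in wt and 1.13 in menin-null PILECs. Its log2 ratio of menin-null to wt mESCs was -0.26 (95% interval -0.65 to 0.14), and -0.52 (-0.91 to -0.12) when scaled to tags within 1 kb of a start. Foxh1 held 28.0, 30.4, 1.17 and 1.30 RPM, and Gdf1, whose start lies in a locus shared with another gene, held 11.9, 16.2, 0.852 and 1.07 RPM, in that order. Gdf3 held 27.1 RPM in wt and 41.5 in menin-null mESCs, for a log2 ratio of 0.60 (95% interval 0.18 to 1.06), with 1.38 and 1.19 RPM in the PILECs. Scaled to tags within 1 kb of a start, the interval of Gdf3 included 0 (-0.07 to 0.80). Lefty1, a secreted Nodal inhibitor, held 13.6 RPM in wt and 26.4 in menin-null mESCs, for a log2 ratio of 0.94 (95% interval 0.38 to 1.58), with 1.33 and 1.07 RPM in the PILECs. So scaled, its interval stayed above 0 (0.12 to 1.33). The receptors Acvr1b, Acvr2a and Acvr2b and the signal transducers Smad2, Smad3 and Smad4 stayed marked, with 27.8 to 50.6 RPM in wt PILECs. Nodal itself held 32.9 RPM in wt mESCs and 5.01 in wt PILECs.

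Germline and meiosis genes made up 11 members, from 54 listed genes of which 52 were placed and 20 had 8 RPM or more in wt mESCs, where 2.53% of all marked promoters were members. This list too was chosen with earlier results of these data known. Of the 11, 7 met the rule in the menin-null libraries, near the 67.4% of all members. Hsf2bp held 19.7 RPM in wt and 14.2 in menin-null mESCs, with 1.49 in wt and 1.58 in menin-null PILECs. Dmc1 held 16.0, 17.1, 1.07 and 0.961 RPM, and Tdrd12 held 14.4, 14.2, 0.639 and 1.24 RPM, in the same order. Tdrd6, a scaffold of germ granules, had 14.0 RPM in wt and 14.2 in menin-null mESCs, and Ddx4, the germ cell RNA helicase VASA, had 12.3 and 9.10. Sycp3, a component of the synaptonemal complex, had 9.46 and 6.26, Tex19.1 had 9.04 and 8.53, Dnd1, an RNA-binding protein of primordial germ cells, had 8.63 and 7.68, and Rpl10l, a ribosomal protein gene of the testis, had 8.63 and 11.7. Cyct, the testis cytochrome c, and Stk31 had 8.22 in wt and 4.83 in menin-null mESCs. The rule held all 11 to at most 2 RPM in wt PILECs. In menin-null PILECs all 11 were under 2 RPM too, where 90.4% of all members were at or under it. Over both PILEC libraries they held 0.320 to 1.58 RPM. The ratios of menin-null to wt mESCs had intervals that included 0 on the log2 scale at each of the 11. Scaled to tags within 1 kb of a start, the intervals of 3 of them lay below 0, those of Hsf2bp (log2 ratio -0.73, 95% interval -1.33 to -0.13) and of Cyct and Stk31 (-1.01, 95% interval -2.05 to -0.02 at each). The median level of these members, 9.46 RPM in wt mESCs, was lower than that of the 5 Nodal members, 27.1 RPM.

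**Figure D4:**
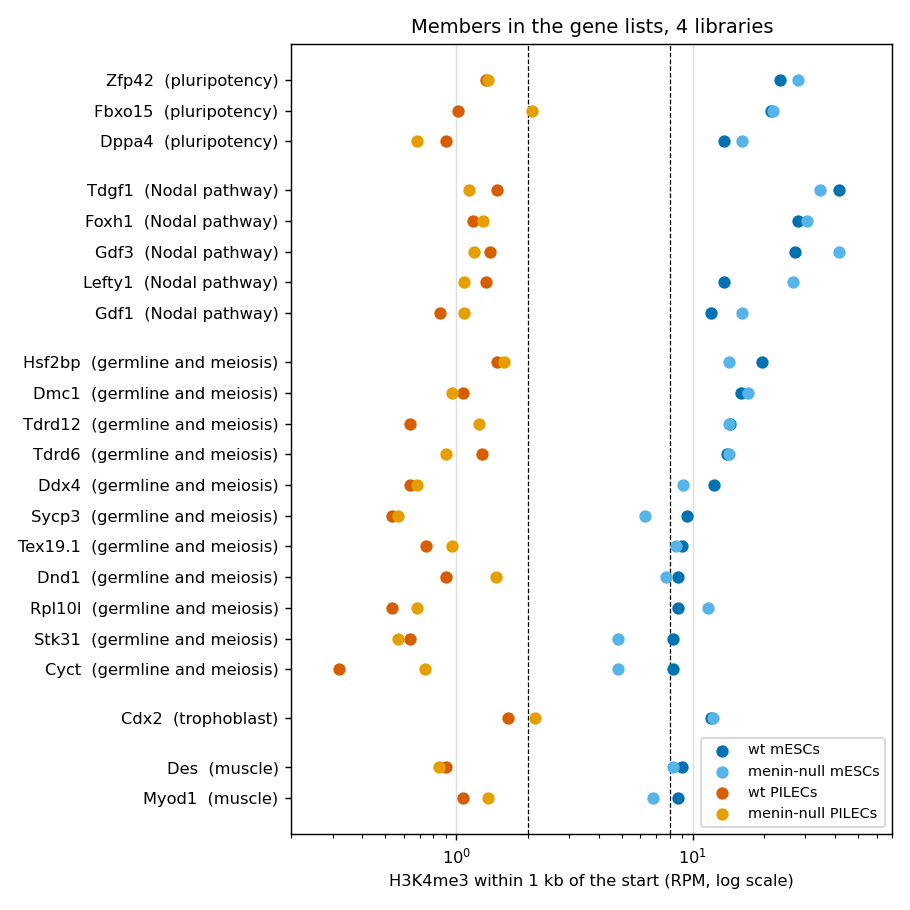
H3K4me3 in RPM within 1 kb of the start (horizontal axis, log scale) for the 22 ESC-only promoters in the gene lists, 1 point for each of the 4 libraries. Dashed lines mark 2 RPM and 8 RPM. Points of both mESC libraries (blue) lie to the right of both PILEC points (orange) at all 22 promoters, which for the 2 wt points follows from the rule.

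The remaining lists gave 3 members. Of 8 trophoblast genes placed, 5 had 8 RPM or more in wt mESCs and 1 was a member. Of 8 muscle genes, 3 had that level and 2 were members, where 2.53% of all marked promoters were. The other of these muscle genes, Myl4, held 39.1 RPM in wt mESCs and 59.1 in wt PILECs. Cdx2, the trophoblast transcription factor, held 11.9 RPM in wt and 12.2 in menin-null mESCs, with 1.65 and 2.15 in the PILECs. Des, the muscle intermediate filament gene, held 9.04 and 8.25 RPM in the mESCs, and Myod1, the muscle determination factor, held 8.63 and 6.82, near the threshold. No member came from the postimplantation, islet, fibroblast and feeder, neural, 2-cell and housekeeping lists, in which 31 genes in all held 8 RPM or more in wt mESCs. At the 2.53% of all marked promoters fewer than 1 of these 31 would be a member, so the 0 is near that share. Of the 10 fibroblast and feeder genes, 1 (Thy1) had 8 RPM or more in wt mESCs, and the medians of the list were 1.23 RPM in wt and 0.995 in menin-null mESCs, and 2.85 in wt and 2.23 in menin-null PILECs, and the part of such cells in the results was not tested. The 17 islet genes had medians of 5.345 RPM in wt mESCs, 3.98 in menin-null mESCs and 3.17 in menin-null PILECs. In wt PILECs their median was lower than in wt mESCs, at 2.24 RPM, from 0.213 at Ins1 to 25.1 at Pcsk2. The other insulin gene, Ins2, held 0.426 RPM in wt PILECs. Among the transcription factors of this list, Isl1, Neurod1, Nkx6-1, Pax6 and Nkx2-2 held 8.20, 7.03, 6.02, 5.38 and 4.37 RPM in wt PILECs, Neurog3 held 2.24 and Pdx1 1.07. In wt mESCs these factors held 18.5, 6.58, 6.58, 5.34, 7.81, 12.3 and 7.40 RPM, in the same order. The neural list had a median of 10.5 RPM in wt mESCs and 16.4 in wt PILECs. In the menin-null libraries the order was the other way, with 14.5 RPM in mESCs and 12.4 in PILECs. In bulk chromatin, fewer cells with the mark and less of it per cell cannot be told apart.

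The highest members were Rbmxl2, Tdgf1, Nsd1, Zscan10, Tdh, Triml2, Gm9590, Npepl1, Trim6, Foxh1, Gdf3 and Gm7325, and 10 of these 12 met the rule in the menin-null libraries, against 67.4% of all members. They were picked for a wt mESC level far above 8 RPM. Rbmxl2, a testis RNA-binding protein gene, held 43.6 RPM in wt mESCs and 60.6 in menin-null mESCs (log2 ratio 0.47, 95% interval 0.13 to 0.82), and 1.28 and 1.30 in the PILECs. Zscan10, an ES cell zinc-finger factor, held 36.2 and 32.1 RPM in the mESCs and 1.70 and 1.87 in the PILECs. Tdh, the threonine dehydrogenase that mESCs depend on, held 33.7 and 36.4 RPM in the mESCs and 0.959 and 1.30 in the PILECs. Triml2 held 32.1 and 38.1 RPM in the mESCs and 1.23 and 0.905 in the PILECs, and its start lies 126.5 kb from that of Zfp42 on chromosome 8. The input within 100 kb was higher in menin-null than in wt mESCs at both starts, with log2 ratios of 0.42 (95% interval 0.23 to 0.62) at Triml2 and 0.32 (95% interval 0.12 to 0.52) at Zfp42, beside H3K4me3 ratios of 0.24 at each. Trim6 held 28.8 and 27.0 RPM and Npepl1 29.6 and 28.1 RPM in the mESCs. None of the 12 had an interval of menin-null over wt mESCs below 0, and 4 had one above 0 (Rbmxl2, Gm9590, Gdf3 and Gm7325), where 29.1% of all promoters marked in wt mESCs did. Scaled to the tags within 1 kb of a start, 1 of the 12 (Gm7325) had an interval above 0 and 2 (Tdgf1 and Zscan10) had one below 0.

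An ESC-only window did not always mean an ESC-only gene. Of the 291 members, 100 (34.4%) had another annotated start more than 2 kb away, against 46.2% of all promoters marked in wt mESCs. Of these 100, 15 (15.0%) had 8 RPM or more there in wt PILECs, against 9.45% of the marked promoters with another start. Rbpj, the DNA-binding partner of Notch, held 26.7 RPM in wt mESCs and 1.07 in wt PILECs at its 5' end, and 63.7 and 60.5 RPM at a start 34.8 kb away. Gnas held 16.9 and 1.81 RPM at its 5' end, and 51.4 and 39.9 RPM at a start 46.0 kb away. Nsd1, a histone methyltransferase gene, held 39.1 and 1.97 RPM at its 5' end and 51.4 and 35.3 RPM at a start 2.3 kb away. The same was seen at Usp7, Ptp4a2, Itga6, Ash2l, which encodes a subunit shared by MLL-type complexes, and 8 further genes. These genes were chosen after their values were seen.

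Between the mESC libraries the members as a group leaned lower in menin-null cells than other marked promoters did, by a small amount. The median log2 ratio of menin-null to wt mESCs was -0.09 over the members, 0.24 over the other 11196 promoters marked in wt mESCs and 0.12 over all promoters. The last value includes the promoters under 8 RPM in wt mESCs. Their median, -0.53, equals the ratio that the added tag gives where both libraries have 0 tags. The wt mESC library that chose the members is also the denominator of this ratio. Grouped by that same wt level, which does not remove its part in the choice, the medians were -0.15 and 0.07 from 8 to 12 RPM, -0.08 and 0.15 from 12 to 20 RPM, and 0.07 and 0.25 from 20 to 44 RPM. The first of each pair is that of the ESC-only promoters. A larger share of the menin-null tags lay within 1 kb of a start, 43.1% against 36.1% in wt mESCs. Scaled to these tags the median was -0.34 over the members and -0.02 over the other marked promoters.

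By single promoters, few members moved by 2-fold. Menin-null mESCs were 2-fold or more lower at 13 of the 291 members (4.47%), against 0.418% of all promoters marked in wt mESCs, and 2-fold or more higher at 2 (0.687%), against 0.453%. Members were lower in level than most marked promoters, with wt mESC medians of 11.1 and 32.9 RPM for members and the rest. Within the same wt level the lower share was 6.18% of members and 2.14% of the other marked promoters from 8 to 12 RPM, 2.35% and 0.754% from 12 to 20 RPM, and 0 of 28 and 0.0718% from 20 to 44 RPM. Scaled to tags near starts, 30 members were 2-fold or more lower (10.3%, against 1.25% of all marked promoters) and 1 was higher (0.344%, against 0.0435%). Intervals below 0 were found at 21 members (7.22%, against 1.75%) and intervals above 0 at 21 (7.22%, against 29.1%). Scaled to tags near starts, these were 52 and 5 members, against 7.43% and 7.30% of marked promoters. All 13 of the lower members had 20 to 43 tags in wt mESCs, and at 11 of them the interval lay below 0. The wt mESC count that admitted a member is also the denominator of its ratio. These intervals therefore rest in part on values that chose the members. Among the 13, 4930523C07Rik stood under 2 gene IDs that had the same ratio and interval when scaled to tags near starts. Its tags thus appear to be counted for both, and the 13 are not all separate.

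**Figure D5:**
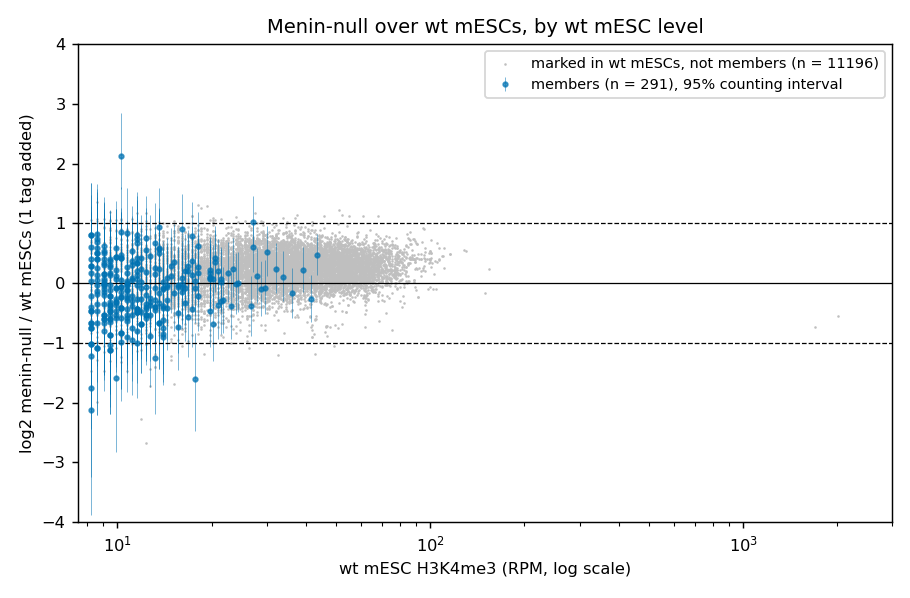
The log2 ratio of menin-null to wt mESC H3K4me3 with 1 tag added to each count (vertical axis) against the wt mESC level in RPM (horizontal axis, log scale). Blue points are the 291 ESC-only promoters with 95% counting intervals and grey points the other 11196 promoters marked in wt mESCs; dashed lines mark 2-fold. The members have a median of -0.09 and most lie at the low end of the levels, where intervals are wide.

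Hus1b, a checkpoint clamp paralog, had the largest decrease, from 8.22 RPM in wt mESCs (20 tags) to 1.71 RPM in menin-null mESCs (6 tags), a log2 ratio of -2.12 (95% interval -3.87 to -0.90). Vrtn fell from 8.22 to 2.27 RPM (-1.75, 95% interval -3.25 to -0.61) and Degs2, a sphingolipid desaturase gene, from 17.7 to 5.69 RPM (-1.60, 95% interval -2.48 to -0.84). Both lie on chromosome 12, where the input within 100 kb of the start was also lower in menin-null mESCs, with log2 ratios of -0.83 at Vrtn and -0.999 at Degs2. At the other 289 members that input ratio ran from -0.34 to 0.48. Sap25 fell from 9.87 to 3.13 RPM (-1.59, 95% interval -2.83 to -0.57) and 2310014L17Rik from 13.2 to 5.40 RPM (-1.25, 95% interval -2.19 to -0.42). In PILECs these 5 promoters held 0.213 to 1.28 RPM in wt and 0.452 to 1.13 in menin-null cells. They were named because their mESC ratios were the lowest of all members. The wt mESC count that admitted each of them is also the denominator of its ratio. Hus1b and Vrtn stood at 8.22 RPM, the lowest wt mESC level of any member. The intervals allow for neither choice and so overstate the evidence for a decrease.

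The largest increase was at 1700018B08Rik on chromosome 8, from 10.3 RPM in wt mESCs (25 tags) to 46.6 RPM in menin-null mESCs (164 tags), a log2 ratio of 2.13 (95% interval 1.57 to 2.85), while the input within 100 kb differed by 0.06. Gm7325 rose from 27.1 to 55.4 RPM (1.02, 95% interval 0.62 to 1.46), and its ratio was 0.76 (0.37 to 1.20), short of 2-fold, when scaled to tags near starts. Lefty1, given above, Rab26 (16.0 and 30.4 RPM) and Pycard (10.3 and 19.05 RPM), an inflammasome adaptor gene, had ratios of 0.94, 0.90 and 0.86 with intervals above 0 and stayed short of 2-fold. Scaled to tags near starts, the interval of Pycard included 0 (-0.05 to 1.36). The members with increases were named because their mESC ratios were the highest of all members, and the intervals do not allow for that choice.

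In PILECs the menin-null library was also low at most members. It was at or under 2 RPM at 263 members, and it was over 2 RPM at 28 (9.62%), against 0.926% of the 9074 promoters with 2 RPM or less in wt PILECs. Most of the 9074 lay further below 2 RPM, and 8141 of those that were not members held under 1 RPM in wt PILECs. At like wt PILEC levels the share over 2 RPM was 0 of 106 members and 0.0737% of the other promoters under 1 RPM, 5.36% and 3.31% from 1 to 1.5 RPM, and 30.1% and 21.4% from 1.5 to 2 RPM. Of the 28, 23 held 2.5 RPM or less. The interval of menin-null over wt PILECs lay above 0 at 9 members (3.09%, against 2.87% of the 9074). It lay below 0 at 10 (3.44%, against 1.23%), and the median log2 ratio was 0.01. The wt PILEC library, which the rule capped at 2 RPM, is also the denominator of this ratio. Intervals of single members therefore rest in part on values that chose the members. At like wt PILEC levels the share below 0 was 0.943% of members and 0.639% of the other promoters under 1 RPM, 3.57% and 5.80% from 1 to 1.5 RPM, and 6.85% and 13.8% from 1.5 to 2 RPM, so the order of the pooled shares did not hold from 1 RPM up. Gm9590 was the highest, with 5.66 RPM in menin-null and 1.86 in wt PILECs (log2 ratio 1.57, 95% interval 1.03 to 2.20). It held 30.0 RPM in wt and 43.5 in menin-null mESCs. 1700018B08Rik was next, with 4.64 RPM in menin-null and 1.17 in wt PILECs (1.94, 95% interval 1.29 to 2.73), so it was higher in the menin-null library at both stages. Cldn6 (2.997 against 1.598 RPM) and Vmn1r90, a vomeronasal receptor gene (2.94 against 1.598 RPM), had intervals above 0, and Ash2l (2.54 against 1.598 RPM) had one that included 0. Only 1 library stood behind each of these values.

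The members were spread over all 19 autosomes, with 6 to 28 on each. Chromosome 17 held 25 of its 576 marked promoters (4.34%), chromosome 14 held 15 of 386 (3.89%) and chromosome 10 held 8 of 575 (1.39%), against 2.53% overall. Chromosome 8 holds 18 members. Its input was higher in menin-null than in wt mESCs by 0.20 on the log2 scale relative to the median autosome. On the same scale, wt mESC over wt PILEC input was 0.21 on chromosome 8 and 0.13 on chromosome 17. It was -0.10 on chromosome 14 and -0.09 on chromosome 10. The part of these input differences in the values and counts of members was not tested.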

How the data were processed

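Reads were made by the authors on an Illumina GAII, placed on mm9, and kept where the location was unique. Each deposited file lists 1 tag per line with its position and strand, without normalization, and a mapping score deposited beside it was not used. Duplicate positions (4.15% to 11.4% of H3K4me3 tags) and tags over 2 mismatches were kept. Uniquely placed tags undercount near-identical genes.

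Tags were moved 125 bp from their 5' end, counted within 1 kb of the 5' end of each gene (GENCODE vM1, NCBIM37) and divided by all tags of the library. Ratios had 1 tag added; intervals did not. Counting and intervals were tested on simulated data. Tools were Python 3.11.15, numpy 2.4.6, pandas 2.3.3, scipy 1.17.1, pysam 0.24.0 and matplotlib 3.10.9. Symbols of the lists were matched directly or by Ensembl ID in a RefSeq table.

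The members, gene lists, thresholds and alternatives were chosen with earlier results of these data known. Genes named were the 12 highest, all in a list, 5 at each end of the mESC ratio, 5 highest in menin-null PILECs and 3 at each side of each threshold, the first by name where tied. A further choice is said beside it. Listed alternatives numbered 9, and 2 more were chosen after seeing the data.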

Additional observations from a re-analysis of the deposited data

How the results depend on the processing

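Of 66 values under the 11 alternatives, 58 stayed within 1.5 times the count, or within the binomial limits of the median (-0.20 to -0.04). With libraries scaled to tags within 1 kb of a start, 281 promoters met the rule, their median log2 ratio of menin-null to wt mESCs was -0.34 in place of -0.09, 29 in place of 13 were 2-fold or more lower, and 143 (50.9%, in place of 67.4%) met the rule in the menin-null libraries. With the start of each gene set to the one with the most H3K4me3, 320 met it and 20 were 2-fold or more lower. With thresholds of 12 RPM and 1 RPM, 33 promoters met the rule, 0 of them were 2-fold or more lower in menin-null mESCs, 23 were at or under the stricter limit of 1 RPM in menin-null PILECs, 12 met both limits in the menin-null libraries, and 33 were 4-fold or more lower in menin-null PILECs than in menin-null mESCs. Fewer promoters entered that setting by construction, and the cause of the other changes was not tested. With every library thinned to the shallowest, 275 promoters met the rule and 153 of them (55.6%) did so in the menin-null libraries. Leaving out members under 3 times input, or those with another start marked in wt PILECs, both chosen after seeing the data, left 173 of 254 (68.1%) and 184 of 276 (66.7%) meeting the rule in the menin-null libraries. No paired analysis was possible because each group had 1 library. With 1 library a group no error between cultures could be measured, and near 8 RPM a wt mESC value rests on about 20 tags.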
